A study of Homo sapiens with 16 samples.

Results

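Matrix metalloproteinases (MMPs) and their tissue inhibitors (TIMPs) were followed through 16 RNA libraries of NOMO-1, a human cell line from acute myeloid leukaemia. The group holds 10 of the 26830 entries of the deposited table, taken by name: the collagenases MMP1 and MMP8, the gelatinases MMP2 and MMP9, the membrane-bound MMP14 and MMP25, the secreted MMP19, and the inhibitors TIMP1, TIMP2 and TIMP3. They were chosen by name with the TPM values of these same libraries known, across all 5 groups. Their levels, fold changes and calls are therefore descriptions of these libraries, and no p value is printed for them.

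The tested libraries came from cells given 100 nM CS1 for 72 h (n = 3) or 500 nM CS2 for 72 h (n = 3), and were set against cells given the solvent DMSO for 72 h (n = 4). The series presents CS1 and CS2, which the labels give only as codes, as inhibitors of FTO, an enzyme that removes methyl marks from RNA. A second experiment set cells with a lentiviral hairpin against FTO (shFTO, n = 3) against cells with the control hairpin (shNS, n = 3). Both kinds were kept for 1 week in 1 µg/ml puromycin to select the stably infected cells. The labels do not say how many hairpin sequences were used, and the DMSO cells carried no hairpin, so the levels of shNS and DMSO differ by more than a drug. The series text calls the replicates biological. It does not say whether they came from separate cultures of 1 stock, and the tests measure only the spread between these libraries.

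MMPs are zinc-dependent proteases that are made as inactive proenzymes and, once activated, cut collagens and other proteins of the extracellular matrix. TIMPs bind their active site and block it. In blood, neutrophils store MMP8, MMP9 and MMP25 in granules, while monocytes and macrophages secrete several MMPs together with TIMP1 and TIMP2. Transcript levels say nothing of how much protease was active.

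Levels are TPM, a transcript's share of its library after division by transcript length, so that genes can be compared with each other. TPM keeps no read depth, and no counting error can be given. In each library between 18675 and 19358 entries were above 0, and replicates of a group correlated with Pearson's r between 0.9877 and 0.993 across genes. FTO itself stood at 8.12, 7.49 and 8.35 TPM in shFTO cells, against 31.27, 30.82 and 32.79 TPM in shNS cells. Of 7 monocyte and macrophage markers, CD68, LYZ, FCN1 and ITGAM were above 1 TPM in every group, while CD14 never exceeded 0.98 TPM and CD163 never 1.44 TPM. The summed level of these 7 markers was 528.6 to 558.1 TPM with CS1 and 767.1 to 809.6 TPM with CS2, against 182.4 to 207.6 TPM with DMSO. It was 2612.6 to 3180.2 TPM in shFTO cells, against 427.6 to 431.2 TPM in shNS cells. LYZ, the lysozyme gene, made up most of that difference, at a mean of 2230 TPM in shFTO cells, against 163 TPM in shNS cells. FCN1 went the other way, at 31.5 TPM in shFTO cells, against 40.7 TPM in shNS cells (log2 fold change -0.36, limma adjusted p = 3.99e-05). Of 8 neutrophil granule markers, CRISP3 was at 0 in all libraries and LCN2 never exceeded 0.09 TPM, while CHI3L1 lay between 278.5 and 661.5 TPM. Summed over the 8 they reached 380.3 to 462.7 TPM with CS1 and 384.1 to 465.2 TPM with CS2, against 284.8 to 334.3 TPM with DMSO. The same sum was 649.7 to 691.0 TPM in shFTO cells, against 562.9 to 580.9 TPM in shNS cells. CHI3L1 made up most of each of these sums. It rose by 0.38 with CS1 and 0.40 with CS2 (adjusted p = 0.00103 and 0.000388), and did not pass in shFTO cells (0.21, adjusted p = 0.0531). CAMP rose by 1.89, 1.54 and 1.63 with CS1, CS2 and the hairpin. CEACAM8 had log2 differences of -0.11, -0.02 and 0.12 (adjusted p at least 0.435). The remaining markers were too low to be tested. Summed over 5 promyelocyte granule markers, the level was 1638.5 to 2020.4 TPM with CS1 and 1684.9 to 1836.3 TPM with CS2, against 1926.9 to 2238.1 TPM with DMSO. That sum was 2820.4 to 3081.0 TPM in shFTO cells, against 2703.6 to 2890.6 TPM in shNS cells. Of these 5, PRTN3, the proteinase 3 gene, fell by 1.24 with CS1, by 1.75 with CS2 and by 0.76 in shFTO cells (adjusted p = 6.85e-07, 3.55e-09 and 0.000138). The list did not move as one. AZU1 and CTSG rose in shFTO cells, by 0.40 and 0.42 (adjusted p = 7.86e-05 and 6.37e-05). With the compounds their log2 differences were at most 0.08 (adjusted p at least 0.307). ELANE is given below, and MPO never exceeded 0.6 TPM. The summed fibroblast markers never exceeded 2.43 TPM, the epithelial ones 9.07 TPM and the endothelial ones 1.48 TPM. How far these marker shifts account for the MMP levels was not tested. In bulk RNA, fewer cells of a kind and less RNA per cell cannot be told apart.

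A gene was tested if it reached 1 TPM in at least 3 libraries, which 14951 entries and 7 of the 10 members did. Limma was fitted to log2(TPM + 1) for all 14951 entries, and a gene is written as higher or lower, or as having risen or fallen, where its Benjamini-Hochberg adjusted p over all of them was below 0.05. Fold changes on this scale understate the change of genes near 1 TPM, so the ratio of mean TPM is given beside most values of the members. In CS1 against DMSO 51.8% of all tested entries were called, 37.5% higher and 14.3% lower. In CS2 against DMSO 74.1% were called, 49.5% higher and 24.6% lower. In shFTO against shNS the share was 56.4%, with 31.9% higher and 24.5% lower. The members stood against these backgrounds at 7 of 7 higher with CS1, 7 of 7 higher with CS2, and 4 higher and 1 lower of 7 with the FTO hairpin. Since the members were chosen with these contrasts known, nothing is read from those counts. Scaling each library to its median gave the tested entries a median log2 fold change of -0.09 in place of 0.09 for CS1, -0.03 in place of 0.20 for CS2 and -0.01 in place of 0.07 for the hairpin. The share of called entries that were higher was then 37.9% in place of 72.4%, 47.8% in place of 66.8% and 44.9% in place of 56.6%.

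With both compounds the collagenases carried the largest fold changes among the 7 tested members. MMP1, the interstitial collagenase, which opens the triple helix of fibrillar collagens, is encoded on chromosome 11 (102789920 to 102798160, minus strand, GRCh38, GENCODE 29). It held 188.91, 214.88 and 137.35 TPM with CS1 and 264.45, 253.15 and 357.04 TPM with CS2, against 7.15, 6.44, 8.25 and 8.30 TPM with DMSO. Every treated library lay far above every DMSO library, and all CS2 libraries lay above all CS1 libraries. The log2 fold change was 4.39 (SE 0.185) for CS1 and 5.09 (SE 0.185) for CS2, with ratios of mean TPM of 23.9 and 38.7.

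MMP1 was already abundant in hairpin cells. It held 64.34, 51.07 and 94.80 TPM in shFTO cells, against 48.49, 47.67 and 47.34 TPM in shNS cells. All 3 shFTO libraries lay above the shNS libraries, but replicate 3 stood well above the other two. The log2 fold change was 0.50 (SE 0.197, ratio 1.46), and the call ended under 5 processing alternatives (median scaling, no filter, no trend, only the groups compared, and the replicate block) and in 10 of the 16 fits that each left out 1 library. Without shFTO replicate 3 the value was 0.26. MMP1 shares 150 of its 1970 exonic bases with WTAPP1, a pseudogene transcript of the opposite strand. Whether the authors' counting used strand is not given in the sources used here. WTAPP1 lay between 1.28 and 5.68 TPM in all libraries. It rose with CS1 (log2 fold change 0.65, SE 0.104, limma adjusted p = 9.6e-05) and with CS2 (1.07, SE 0.104, adjusted p = 1.78e-07).

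MMP8, the collagenase of neutrophil granules, lies in the same gene cluster (chromosome 11, 102711795 to 102727050, minus strand). It held 34.60, 35.32 and 24.59 TPM with CS1 and 162.65, 153.74 and 154.18 TPM with CS2, against 4.21, 3.92, 4.02 and 3.98 TPM with DMSO. The 3 groups did not overlap. CS1 replicate 3 was the lowest of its group here, as it was for MMP1. The log2 fold change was 2.67 (SE 0.101, ratio 7.81) for CS1 and 4.97 (SE 0.101, ratio 38.9) for CS2. In the hairpin experiment MMP8 went the other way, with 0.73, 0.80 and 1.12 TPM in shFTO cells, against 2.31, 2.14 and 2.3 TPM in shNS cells. It fell by 0.79 on the log2 scale (SE 0.108, ratio 0.393), so shFTO cells had the lowest MMP8 of the 5 groups.

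Sequence before the RefSeq transcription start on GRCh38.p14 was given for 4 of the 10 members (MMP8, MMP14, TIMP1 and TIMP3). The stretches of MMP8 and TIMP1 are shown because both rose with both compounds while they parted in shFTO cells. Each runs 5′ to 3′ on the gene's own strand from 250 bases before the RefSeq start and stops before any exon base annotated in GENCODE. For MMP8 this gives bases -250 to -50 (201 bases) and for TIMP1 bases -250 to -124 (127 bases). The 2 annotations place the starts of these genes differently. For MMP8 the RefSeq start is base 102724954, while the GENCODE gene begins further upstream, at base 102727050. By GENCODE the MMP8 stretch therefore lies inside the gene, outside its exons, and is not sequence upstream of the gene. The TIMP1 stretch lies before both starts. Capitals mark matches to the motifs searched.
MMP8 (chr11:102725004-102725204, minus strand): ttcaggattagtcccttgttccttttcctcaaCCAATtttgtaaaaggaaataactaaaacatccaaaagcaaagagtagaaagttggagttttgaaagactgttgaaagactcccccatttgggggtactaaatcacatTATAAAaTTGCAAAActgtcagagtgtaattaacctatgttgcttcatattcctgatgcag
TIMP1 (chrX:47582186-47582312, plus strand): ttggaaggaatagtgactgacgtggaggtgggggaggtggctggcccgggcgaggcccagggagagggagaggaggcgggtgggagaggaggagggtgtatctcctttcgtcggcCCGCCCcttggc

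Both strands of the 250 bases were searched for TGAGTCA (AP-1), AGGAAG (ETS), TTGCNNAA (C/EBP), the NF-kB consensus, GGGCGG (SP1), TATAAA and CCAAT, and none of the matches found overlapped another. MMP8 held 1 CCAAT, 1 TATAAA (bases -110 to -105) and 1 TTGCNNAA (bases -103 to -96). TIMP1 held 2 GGGCGG on the reverse strand and 1 AGGAAG, of which 1 GGGCGG (bases -135 to -130) falls in the stretch shown. Among 35116 RefSeq promoters of the same length, 10.7% held TATAAA, 9.05% TTGCNNAA, 32.0% CCAAT, 42.6% GGGCGG, 28.7% AGGAAG, 4.2% TGAGTCA and 0.179% the NF-kB consensus. TGAGTCA and the NF-kB consensus were not in either window, which says nothing of the factors.

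**Figure D1:**
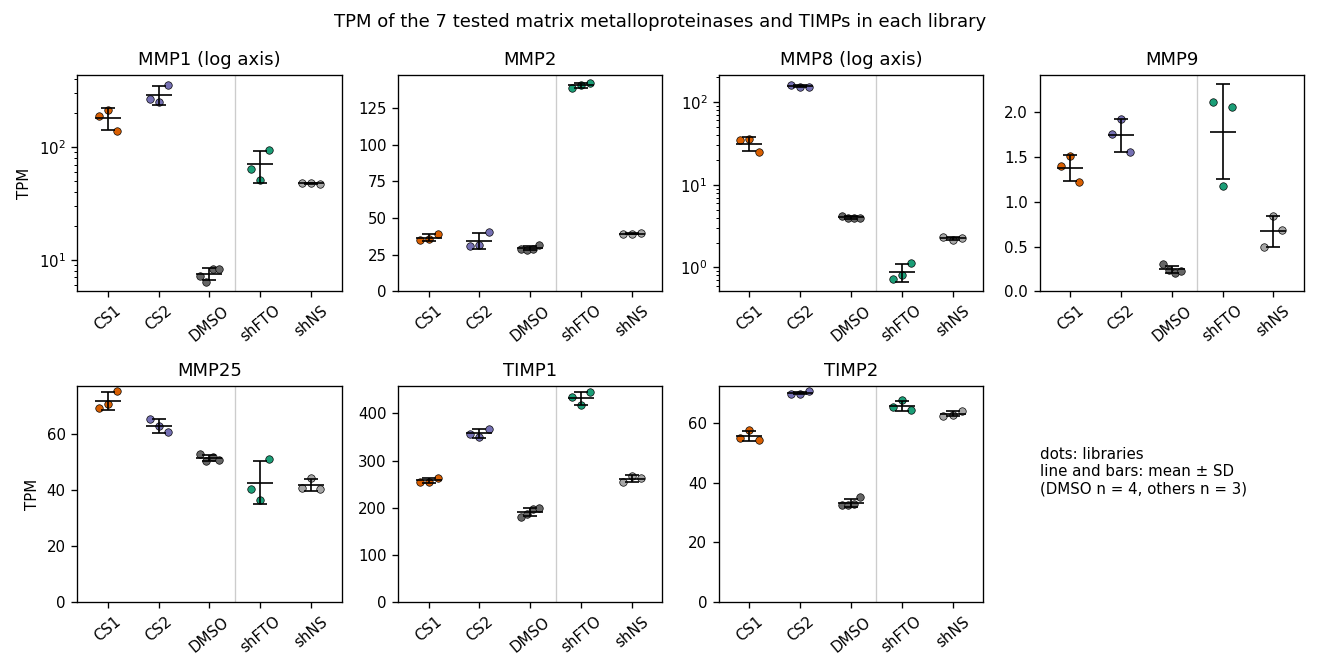
TPM of the 7 tested members (vertical axes, TPM, logarithmic for MMP1 and MMP8) in CS1, CS2, DMSO, shFTO and shNS cells, left to right; dots are libraries and bars are mean ± SD. MMP1 and MMP8 are far higher with both compounds than with DMSO, while MMP2 stands at 138.86 to 142.04 TPM in shFTO cells alone and below 41 TPM in every other library.

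The gelatinases, which digest denatured collagen and the collagen of basement membranes, are MMP2 and MMP9. MMP2 (chromosome 16, 55389700 to 55506691, plus strand) held 138.86, 140.58 and 142.04 TPM in shFTO cells, against 39.16, 38.91 and 39.56 TPM in shNS cells. The replicates were tight and the groups lay far apart. On the log2 scale the difference was 1.82 (SE 0.077, ratio 3.58), the largest among the members in this experiment. With the compounds MMP2 moved little: it held 34.82, 35.69 and 39.23 TPM with CS1 and 30.85, 31.87 and 40.46 TPM with CS2, against 29.07, 28.41, 29.19 and 31.34 TPM with DMSO. CS1 libraries lay above DMSO libraries, and CS2 libraries overlapped them. Its log2 values of 0.30 (SE 0.072) for CS1 and 0.21 (SE 0.072) for CS2 both passed, but neither did after median scaling or quantile normalization, and the CS2 value was 0.09 and lost its call without CS2 replicate 3. The CS2 call also ended when only the groups compared were fitted (0.21, SE 0.090).

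MMP9, the gelatinase that neutrophils and macrophages release, was scarce. It held 1.40, 1.51 and 1.22 TPM with CS1 and 1.75, 1.92 and 1.55 TPM with CS2, against 0.30, 0.24, 0.21 and 0.23 TPM with DMSO. In the hairpin experiment it held 2.11, 1.17 and 2.06 TPM in shFTO cells, against 0.49, 0.84 and 0.68 TPM in shNS cells. In all 3 comparisons the groups did not overlap. MMP9 reached 1 TPM only in CS1, CS2 and shFTO libraries, so it passed the filter through the groups where it was high. The log2 fold changes were 0.93 (SE 0.123, ratio 5.62) for CS1, 1.14 (SE 0.123, ratio 7.10) for CS2 and 0.72 (SE 0.131, ratio 2.66) for the hairpin. MMP9 shares 430 of its 2336 exonic bases with SLC12A5-AS1 of the opposite strand.

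MMP25, a protease held at the surface of leukocytes by a lipid anchor, was the most abundant MMP of DMSO cells (chromosome 16, 3046681 to 3060726, plus strand). It held 69.48, 71.05 and 75.48 TPM with CS1 and 65.64, 63.03 and 60.77 TPM with CS2, against 53.03, 50.53, 51.80 and 50.90 TPM with DMSO. The log2 fold change was 0.47 (SE 0.080, ratio 1.40) for CS1 and 0.29 (SE 0.080, ratio 1.22) for CS2. The CS2 call ended under median scaling (0.06) and quantile normalization (0.04). In hairpin cells MMP25 was at 40.43, 36.63 and 51.30 TPM in shFTO cells, against 41.00, 44.31 and 40.63 TPM in shNS cells, and these groups overlapped. Its log2 difference of 0.01 had a 95% interval of -0.17 to 0.20. The antisense transcript MMP25-AS1 shares 1454 of the 4126 exonic bases of MMP25. MMP25-AS1 rose with CS2 (log2 fold change 0.75, SE 0.073, adjusted p = 2.07e-07) and fell by 0.28 in shFTO cells (SE 0.078, adjusted p = 0.00681), so part of either signal could belong to the other transcript if strand was not used.

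MMP14, the membrane protease that activates the MMP2 proenzyme, was near the floor and not tested. It held 0.57, 0.42 and 0.20 TPM with CS1 and 0.13, 0.14 and 0.04 TPM with CS2, against 0.25, 0.37, 0.42 and 0.31 TPM with DMSO. In the hairpin experiment it held 0.44, 0.55 and 0.35 TPM in shFTO cells, against 0.32, 0.37 and 0.35 TPM in shNS cells. All CS2 libraries lay below all DMSO libraries, while CS1 overlapped DMSO and shFTO overlapped shNS. MMP19 was not tested either. It held 0.57, 0.27 and 0.31 TPM with CS1 and 0.11, 0.42 and 0.22 TPM with CS2, against 0.25, 0.08, 0.04 and 0.15 TPM with DMSO. It held 0.65, 1.04 and 0.68 TPM in shFTO cells, against 0.44, 0.31 and 0.50 TPM in shNS cells, and only shFTO replicate 2 passed 1 TPM. The CS1 libraries lay above the DMSO libraries and the shFTO libraries above the shNS libraries, whereas CS2 and DMSO overlapped. MMP19 shares 814 of its 4672 exonic bases with TMEM198B, a pseudogene transcript of the opposite strand. Part of its low signal could belong to that transcript if strand was not used.

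The inhibitors were led by TIMP1, a secreted inhibitor that also binds the MMP9 proenzyme (chromosome X, 47582313 to 47586789, plus strand). TIMP1 held 255.66, 254.39 and 264.10 TPM with CS1 and 356.40, 349.91 and 367.52 TPM with CS2, against 179.99, 187.40, 197.55 and 199.37 TPM with DMSO. In the hairpin experiment it held 434.60, 417.90 and 444.56 TPM in shFTO cells, against 254.34, 268.27 and 263.13 TPM in shNS cells. The groups of each comparison did not overlap, and shFTO cells had the highest level of the 5 groups. The log2 fold changes were 0.43 (SE 0.038, ratio 1.35) for CS1, 0.90 (SE 0.038, ratio 1.87) for CS2 and 0.72 (SE 0.040, ratio 1.65) for the hairpin.

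TIMP2, which inhibits MMPs and also helps MMP14 to activate MMP2, lies on chromosome 17 (78852977 to 78925387, minus strand). It held 54.98, 57.53 and 54.45 TPM with CS1 and 69.74, 69.86 and 70.61 TPM with CS2, against 32.40, 32.47, 32.82 and 35.13 TPM with DMSO. The 3 groups did not overlap. It rose by 0.73 (log2, SE 0.034, ratio 1.68) with CS1 and 1.06 (SE 0.034, ratio 2.11) for CS2. In hairpin cells TIMP2 was at 65.31, 67.70 and 64.21 TPM in shFTO cells, against 62.39, 62.76 and 64.00 TPM in shNS cells. The shFTO libraries lay just above the shNS libraries, with a log2 difference of 0.06 that was not called (95% interval -0.02 to 0.14). It was called higher under quantile normalization (0.10, SE 0.039) and was at -0.03 under median scaling. TIMP3, the inhibitor that binds to the matrix, was not tested. It ranged up to 0.10 TPM over all libraries and had 0.01, 0.00 and 0.01 TPM in shFTO cells, against 0.01 TPM in each shNS library.

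**Figure D2:**
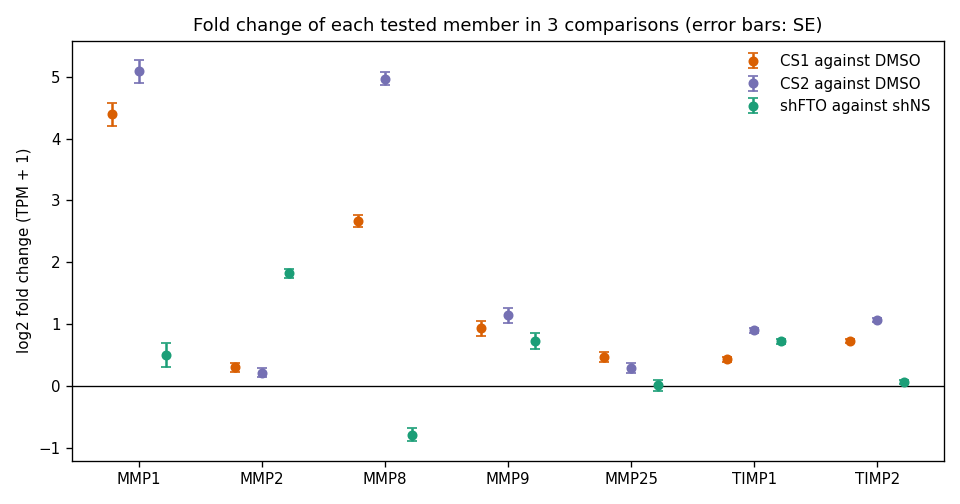
Log2 fold change of TPM + 1 (vertical axis) of the 7 tested members for CS1 against DMSO, CS2 against DMSO and shFTO against shNS; dots are limma estimates and bars are SE. MMP1 and MMP8 reach 5.09 and 4.97 with CS2, whereas with the FTO hairpin MMP2 has the largest value, 1.82, and MMP8 is at -0.79.

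CS1 and CS2 were also set side by side, at doses that differ (100 nM and 500 nM). Of all tested entries 66.6% were called, 26.2% higher and 40.4% lower with CS1 than with CS2. Among the members 0 were higher and 4 lower. MMP8 was lower with CS1 than with CS2 by the largest amount, with a log2 difference of -2.3 (SE 0.108, ratio 0.201). MMP1 (-0.70, SE 0.197, ratio 0.619), TIMP1 (-0.47, SE 0.040) and TIMP2 (-0.33, SE 0.037) were lower as well. The other differences were not called: MMP2 had 0.09 (95% interval -0.07 to 0.26), MMP9 -0.20 (-0.49 to 0.08) and MMP25 0.19 (0.00 to 0.37). MMP2 was called higher with CS1 without CS2 replicate 3 (0.21). MMP25 was called higher with CS1 under median scaling (0.24) and quantile normalization (0.29), and also when only the groups compared were fitted or when shFTO replicate 2 or 3 was left out (0.19 each).

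Whether a compound and the hairpin moved a gene by different amounts was asked with the difference of the 2 responses, each against its own control. Such differences were called for 49.4% of tested entries with CS1 (31.0% higher, 18.3% lower) and 63.4% with CS2 (39.8% higher, 23.7% lower). Of the 7 members 4 were higher and 2 lower with CS1, and 4 higher and 1 lower with CS2. MMP1 responded more to CS1 than to the hairpin by 3.90 (SE 0.270) and to CS2 by 4.59 (SE 0.270). For MMP8 the difference was 3.47 (SE 0.149) with CS1 and 5.76 (SE 0.149) with CS2, since it rose with the compounds and fell with the hairpin. MMP2 differed in the opposite sense, at -1.51 (SE 0.105) with CS1 and -1.61 (SE 0.105) with CS2. TIMP2 responded more to each compound than to the hairpin, by 0.67 (SE 0.050) with CS1 and 1.00 (SE 0.050) with CS2. For TIMP1 the hairpin response was the larger beside CS1 (-0.29, SE 0.055) and the smaller beside CS2 (0.18, SE 0.055). That last call ended under median scaling (0.04) and quantile normalization (0.05). For MMP25 the difference was called with CS1 (0.46, SE 0.117) and not with CS2 (0.27, 95% interval 0.02 to 0.52). For MMP9 it was called with neither CS1 (0.21, 95% interval -0.17 to 0.59) nor CS2 (0.41, 0.03 to 0.80). With CS2, 4 of the 16 fits that each left out 1 library called MMP9 (0.47 to 0.51), and 1 of them, without shFTO replicate 3, called MMP25 (0.41). With CS2, MMP9 was also called with a pseudocount of 0.1 (1.15, SE 0.332) and with no mean-variance trend (0.41, SE 0.162), and MMP25 with the filter of 5 TPM (0.27, SE 0.116).

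Summed over the 7 MMPs, transcripts were higher in compound-treated cells by a larger factor than those of the 3 TIMPs. The MMP sum averaged 323 ± 40.9 TPM with CS1 and 548 ± 58.3 TPM with CS2 (SD, n = 3 each), against 93.4 ± 2.3 TPM with DMSO (n = 4). The TIMP sum averaged 314 ± 4.27 TPM with CS1 and 428 ± 9.34 TPM with CS2, against 224 ± 10.0 TPM with DMSO. The ratio of both sums was 1.03 ± 0.141 with CS1 and 1.28 ± 0.108 with CS2, against 0.417 ± 0.0182 with DMSO. In shFTO cells the MMP sum was 257 ± 31.4 TPM and the TIMP sum 498 ± 11.7 TPM, against 133 ± 1.67 and 325 ± 7.39 TPM in shNS cells (n = 3 each). Their ratio was 0.477 to 0.574 in shFTO cells and 0.402 to 0.417 in shNS cells. These sums are dominated by few genes and were not tested.

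The make-up of the MMP sum also differed between groups. MMP1 took 55.4% ± 5.47 of it with CS1 and 52.9% ± 4.53 with CS2, against 8.06% ± 0.813 with DMSO. MMP25 took 22.6% ± 3.91 with CS1 and 11.6% ± 1.51 with CS2, against 55.3% ± 1.3 with DMSO, although its own level was higher with both compounds. MMP8 reached 28.8% ± 3.24 with CS2 and 9.72% ± 0.840 with CS1, against 4.32% ± 0.123 with DMSO. In shFTO cells MMP2 was the leading MMP with 55.1% ± 6.06 of the sum, against 29.5% ± 0.603 in shNS cells.

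**Figure D3:**
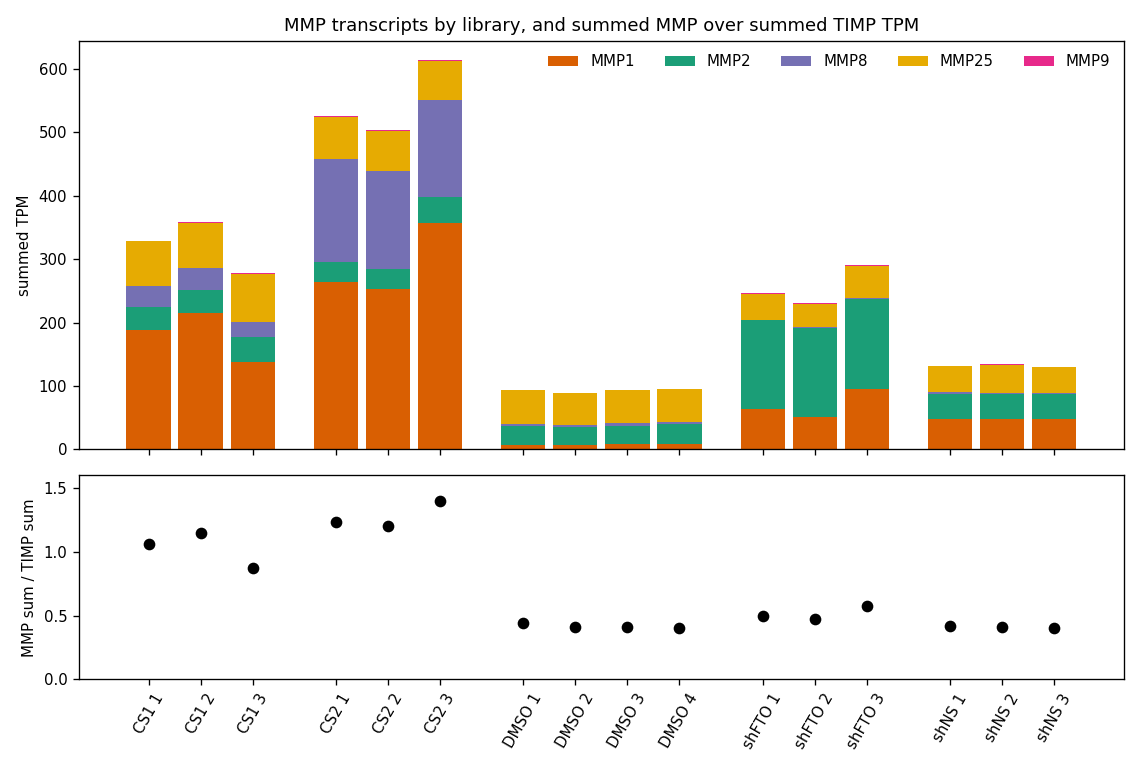
Upper panel, summed TPM of MMP1, MMP2, MMP8, MMP25 and MMP9 (stacked bars, TPM) in each library, with CS1, CS2, DMSO, shFTO and shNS left to right; lower panel, the sum of all 7 MMPs divided by the sum of the 3 TIMPs in the same library. The ratio lies between 0.874 and 1.40 in the 6 compound-treated libraries and between 0.402 and 0.574 in the other libraries, and the orange MMP1 segment is the largest part of every compound-treated bar.

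MMP1 and MMP8 belong to a cluster of 9 MMP genes that spans 435 kb of chromosome 11 (102520508 to 102955734). From the lower to the higher coordinate its genes are MMP7, MMP20, MMP27, MMP8, MMP10, MMP1, MMP3, MMP12 and MMP13. The 4 that passed the filter, MMP7, MMP8, MMP1 and MMP13, were higher with both compounds than with DMSO. Of all tested entries 37.5% were higher with CS1 and 49.5% with CS2. MMP1 and MMP8 were chosen with these contrasts known, and MMP13 passed the filter through groups where it was high. Nothing about the cluster as a whole is therefore read from this count. The other 5 did not reach the filter, and the highest value among them was 0.68 TPM, for MMP12 in a shFTO library. MMP12, the macrophage elastase, had 0.32, 0.20 and 0.68 TPM in shFTO cells, against 0.07, 0.00 and 0.00 TPM in shNS cells. MMP13, a further collagenase, averaged 0.863 ± 0.146 TPM with CS1 and 2.42 ± 0.139 TPM with CS2, against 0.0175 ± 0.0236 TPM with DMSO (n = 3, 3 and 4). MMP13 had a log2 fold change of 0.87 with CS1 (SE 0.087) and 1.75 with CS2 (SE 0.087). It reached 1 TPM only in the 3 CS2 libraries and in CS1 replicate 1, and so passed the filter through the groups where it was high, for which reason no p value is given for these 2 contrasts. With 2 DMSO libraries at 0, no ratio is given either. MMP7, the short protease matrilysin, averaged 1.5 ± 0.101 TPM with CS1 and 3.40 ± 1.23 TPM with CS2, against 0.27 ± 0.13 TPM with DMSO. Its log2 fold change was 0.98 with CS1 (SE 0.167, ratio 5.57, adjusted p = 0.000163) and 1.76 with CS2 (SE 0.167, ratio 12.6, adjusted p = 1.35e-07). In the hairpin experiment neither MMP13 (0.01, adjusted p = 0.941) nor MMP7 (0.29, adjusted p = 0.175) passed.

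**Figure D4:**
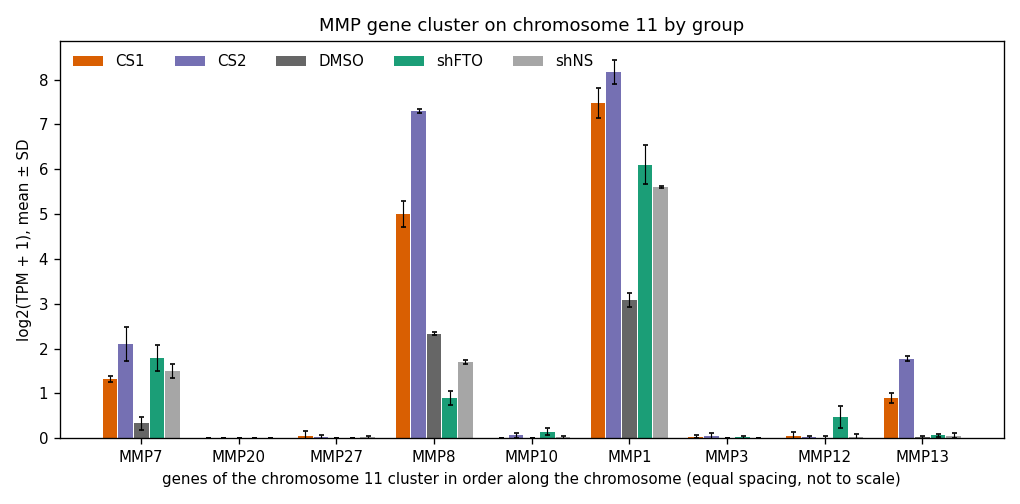
Log2(TPM + 1), mean ± SD over libraries (vertical axis), of the 9 MMP genes of the chromosome 11 cluster in their order along the chromosome (equal spacing) for CS1, CS2, DMSO, shFTO and shNS cells. MMP7, MMP8, MMP1 and MMP13 passed the filter and are highest with CS2. MMP8 is the one of them that is lower in shFTO than in shNS cells by the test. MMP12, below the filter, has a small bar in shFTO cells (mean 0.40 TPM).

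The neighbours outside the cluster did not move as one. Of 5 tested flanking genes, 4 rose and 1 fell with CS1, 2 rose and 1 fell with CS2, and 2 rose and 0 fell in shFTO cells. Over all tested entries 37.5%, 49.5% and 31.9% rose and 14.3%, 24.6% and 24.5% fell, so nothing about the locus is read from these counts. BIRC3, an inhibitor of apoptosis induced by NF-kB, averaged 4.06 ± 0.831 TPM with CS1 and 5.76 ± 1.18 TPM with CS2, against 1.6 ± 0.191 TPM with DMSO. Its log2 fold change was 0.95 with CS1 (SE 0.124, adjusted p = 1.4e-05) and 1.37 with CS2 (SE 0.124, adjusted p = 8.74e-08). DCUN1D5, another flanking gene, fell by 0.39 with CS1 (SE 0.059, adjusted p = 5.43e-05) and by 0.89 with CS2 (SE 0.059, adjusted p = 2.54e-09). DYNC2H1 rose with CS1 (0.44, SE 0.128, adjusted p = 0.00961) and was not called with CS2 or in shFTO cells. The small rises of TMEM123 and BIRC2 with CS1 (0.17 and 0.21) did not pass under median scaling, where TMEM123 was at -0.01.

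Of 16 further MMPs and TIMP4, 4 were tested. The other 13 of these 17 genes never exceeded 1.23 TPM, and 2 of them were at 0 in every library. The highest of those values, for MMP23B, is uncertain because reads can be split with its near copy MMP23A. Besides MMP7 and MMP13, the 2 tested genes encode membrane-anchored proteases. MMP15 averaged 3.33 ± 0.137 TPM with CS1 and 2.08 ± 0.164 TPM with CS2, against 4.75 ± 0.508 TPM with DMSO. It fell by 0.41 with CS1 (SE 0.092, adjusted p = 0.00175) and by 0.90 with CS2 (SE 0.092, adjusted p = 3.3e-07). MMP17 fell by 0.86 with CS2 (SE 0.133, adjusted p = 2.83e-05) and had a log2 difference of 0.01 with CS1 (adjusted p = 0.967). In the hairpin experiment 0 of the 4 passed by limma, beside 56.4% of all tested entries.

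Other proteins that activate, hold or restrain MMPs were listed alongside (16 genes, 9 tested). With CS1 3 rose and 1 fell, with CS2 5 rose and 1 fell, and in shFTO cells 5 rose and 1 fell. Among all tested entries 37.5%, 49.5% and 31.9% rose and 14.3%, 24.6% and 24.5% fell in these comparisons. The counts were not tested against those shares. After median scaling 2 rose and 5 fell with CS1, and 3 rose and 4 fell with CS2, so the balance of this list turned with the scaling. PLAUR, the receptor that gathers urokinase at the cell surface, averaged 57.0 ± 2.15 TPM with CS1 and 96.7 ± 10.2 TPM with CS2, against 25.0 ± 2.31 TPM with DMSO. PLAUR rose by 1.16 with CS1 (SE 0.073, adjusted p = 7.01e-09) and 1.91 with CS2 (SE 0.073, adjusted p = 5.09e-12), and its log2 difference was 0.05 in shFTO cells (adjusted p = 0.585). BSG, the surface glycoprotein that induces MMPs in neighbouring cells, rose with CS2 (0.35, SE 0.025, adjusted p = 4.53e-09) and in shFTO cells (0.33, SE 0.026, adjusted p = 8.86e-08). CD63, a membrane protein that binds TIMP1, rose in all 3 comparisons, by 0.42, 0.56 and 0.32 for CS1, CS2 and the hairpin (adjusted p = 5.42e-06, 6.93e-08 and 0.000128). The 1 that fell in shFTO cells was ELANE, the neutrophil elastase gene (-0.30, SE 0.114, adjusted p = 0.0358), and it lost that call in each of the 6 fits that left out a hairpin library. ELANE fell by 1.24 with CS1 (SE 0.106, adjusted p = 1.89e-07) and by 1.2 with CS2 (SE 0.106, adjusted p = 6.44e-08).

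Related proteases of the ADAM and ADAMTS families (16 genes, 9 tested) rose in 5 cases and fell in 1 with CS1, and rose in 5 and fell in 3 with CS2. In shFTO cells 6 rose and 0 fell, and ADAMTS13 among them passed the filter only through its shFTO libraries and 1 CS1 library. The shares of all tested entries were 37.5%, 49.5% and 31.9% higher and 14.3%, 24.6% and 24.5% lower for CS1, CS2 and the hairpin. The median log2 fold change of the list was 0.22, 0.35 and 0.35, beside 0.09, 0.20 and 0.07 for all tested entries. After median scaling 3 rose and 3 fell with CS1, 3 rose and 3 fell with CS2, and 4 rose and 1 fell in shFTO cells. ADAM9, a membrane protease that sheds surface proteins, averaged 123 ± 9.43 TPM in shFTO cells, against 45.4 ± 1.32 TPM in shNS cells (log2 fold change 1.42, SE 0.055, adjusted p = 5.01e-11). ADAM9 rose by 0.46 with CS2 (adjusted p = 8.24e-07) and fell by 0.18 with CS1 (adjusted p = 0.00769). ADAM17, which releases tumour necrosis factor from the cell surface, rose by 0.30, 0.35 and 0.57 with CS1, CS2 and the hairpin (adjusted p = 0.000154, 1.46e-05 and 6.06e-07). ADAMTSL4, a matrix protein without protease activity, rose by 0.66 with CS1, by 0.93 with CS2 and by 1.15 in shFTO cells (adjusted p = 4.4e-07, 2.15e-09 and 3.03e-09). ADAM15 rose by 0.28 with CS1 (adjusted p = 0.00132) and fell by 0.44 with CS2 (adjusted p = 9.69e-06), and the CS1 call ended after median scaling.

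Of 20 genes for matrix and basement membrane proteins, 9 were tested. With CS1 4 rose and 0 fell, with CS2 4 rose and 3 fell, and in shFTO cells 6 rose and 1 fell. Of those 6, COL6A1 and LAMA5 reached 1 TPM only in shFTO libraries and so had passed the filter through the group where they were high. COL1A1, counted as rising in all 3 comparisons, reached 1 TPM only in CS1 and shFTO libraries and in CS2 replicate 2. It too had passed through groups where it was high. Beside these counts, 37.5%, 49.5% and 31.9% of all tested entries rose and 14.3%, 24.6% and 24.5% fell with CS1, CS2 and the hairpin. After median scaling the counts of the list were 2 and 1, 2 and 4, and 5 and 1. FN1, which encodes fibronectin, averaged 3.99 ± 0.501 TPM with CS1 and 7.10 ± 0.199 TPM with CS2, against 0.97 ± 0.142 TPM with DMSO. It averaged 4.34 ± 0.0651 TPM in shFTO cells, against 1.23 ± 0.0153 TPM in shNS cells. The log2 fold changes of FN1 were 1.34, 2.04 and 1.26 (adjusted p = 3.4e-09, 5.34e-12 and 1.42e-08). HSPG2, the basement membrane proteoglycan perlecan, averaged 14.3 ± 2.13 TPM in shFTO cells, against 5.32 ± 0.15 TPM in shNS cells (1.26, SE 0.092, adjusted p = 3.56e-08), and fell by 0.55 with CS2 (adjusted p = 3.16e-05). COL4A2, a chain of basement membrane collagen, rose by 0.53 with CS2 (adjusted p = 5.77e-09) and fell by 0.21 in shFTO cells (adjusted p = 0.000451). COL6A1 averaged 3.29 ± 0.136 TPM in shFTO cells, against 0.88 ± 0.0624 TPM in shNS cells (log2 fold change 1.19, SE 0.088), with no p value given for the reason above. It also rose with CS1 (0.36, adjusted p = 0.002), a call that ended after median scaling.

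AP-1, ETS and NF-kB factors are known to act on promoters of several MMP genes, and all 17 listed ones were tested. With CS1 13 rose and 0 fell, and with CS2 16 rose and 1 fell. In shFTO cells 6 rose and 6 fell. For all tested entries the shares were 37.5%, 49.5% and 31.9% higher and 14.3%, 24.6% and 24.5% lower in the same order. The list median was 0.44 with CS1, 1.01 with CS2 and 0.08 with the hairpin, beside 0.09, 0.20 and 0.07 for all tested entries. After median scaling 10 rose and 0 fell with CS1, and 12 rose and 1 fell with CS2. FOSL2, an AP-1 subunit, averaged 48.7 ± 3.92 TPM with CS1 and 69.2 ± 7.15 TPM with CS2, against 16.7 ± 0.470 TPM with DMSO. FOSL2 rose by 1.49 with CS1 (SE 0.065, adjusted p = 2.36e-10) and 1.99 with CS2 (SE 0.065, adjusted p = 1.06e-12), and by 0.48 in shFTO cells (SE 0.069, adjusted p = 3.04e-05). ATF3, a stress-induced partner of AP-1, rose by 1.89 with CS1 (SE 0.120, adjusted p = 7.92e-09) and by 2.93 with CS2 (SE 0.120, adjusted p = 1.08e-11). RELB rose by 1.19 with CS1 and 1.96 with CS2 (adjusted p = 8.86e-09 and 6.18e-12), and NFKB2, its partner in the alternative NF-kB pathway, by 0.93 and 1.52 (adjusted p = 2.88e-08 and 2.1e-11). In shFTO cells NFKB2 rose by 0.37 (adjusted p = 0.000434), and RELB by 0.21 (adjusted p = 0.0381), a call that ended under 5 processing alternatives and in 4 of the fits that left out a library. The responses of FOSL2, ATF3, RELB and NFKB2 exceeded those to the hairpin by 0.56 to 1.61 for CS1 and 1.16 to 2.66 for CS2. These genes were named for small adjusted p in contrasts that share these values, so no p value is given here. Of the 17 factors, this difference was higher for 12 and lower for 0 with CS1, and higher for 14 and lower for 0 with CS2. Of all tested entries 31.0% and 39.8% were higher, and 18.3% and 23.7% lower. FOS, FOSL1 and REL were called with neither compound.

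The entries whose profile lay nearest to the collagenases were sought over all 16 libraries among 11538 entries with a group mean of at least 5 TPM, by the root mean square difference of log2(TPM + 1) after centring each gene on its own mean. Near to MMP1 were GPR34 (0.49) and CDKN1A (0.62). GPR34, a receptor for a lysophospholipid, averaged 25.7 TPM with CS1 and 33.6 TPM with CS2, against 1.25 TPM with DMSO, and 18.2 TPM in shFTO cells, against 7.91 TPM in shNS cells, the same order of means as MMP1. Nearest to MMP8 were GPR84 (0.60), S100A9 (0.60) and CXCL8 (0.74). GPR84, a fatty acid receptor of myeloid cells, averaged 13.0 TPM with CS1 and 91.8 TPM with CS2, against 5.67 TPM with DMSO, and 0.90 TPM in shFTO cells, against 2.23 TPM in shNS cells. These are descriptions of the profiles, with no test.

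Ordered by mean level over the 5 groups, MMP1 ran from DMSO through shNS, shFTO and CS1 to CS2 with no overlap between neighbours. MMP8 ran from shFTO through shNS, DMSO and CS1 to CS2, again with no overlap. For MMP2 only shFTO stood clear, and the ranges of the neighbours DMSO, CS2, CS1 and shNS overlapped. TIMP1 ran from DMSO through CS1, shNS and CS2 to shFTO, with overlap between CS1 and shNS. TIMP2 ran from DMSO through CS1, shNS and shFTO to CS2 with no overlap. MMP9 was lowest in DMSO, and CS2 and shFTO overlapped at its top. MMP25 was lowest in shNS, where it overlapped shFTO, and highest with CS1. The hairpin controls differed from DMSO cells in virus, puromycin and experiment, which cannot be told apart.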

How the data were processed

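Poly(A)-enriched RNA of 16 libraries was deposited by the authors as TPM, 1 column per library, a unit named from the equal column totals. RSEM 1.2.31 and GRCh38 are named per the submitters' processing notes; the aligner, the annotation and the strand setting are named in no source used here. TPM divides by the library total, so strong changes of abundant transcripts shift all others.

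Limma 3.58.1 in R 4.3.3 (lmFit, eBayes with a mean-variance trend) was fitted to log2(TPM + 1) with 1 mean per group over all 16 libraries, for the 14951 entries that reached 1 TPM in 3 or more libraries, two-sided, with Benjamini-Hochberg adjustment within a comparison and a threshold of 0.05. The code was tested on simulated data. Members and gene lists were chosen with earlier results of these data known. Named genes were all members, up to 4 per list with the smallest adjusted p in CS1, CS2 or hairpin against control, the 3 nearest profiles of MMP1 and MMP8 (1 of them is not reported here), and FTO, together with overlapping or near-copy transcripts and MMP12, added after their values were seen. Annotation was GENCODE 29. No libraries were identical (0 pairs), and 0 columns were left unmapped. Figures used Python 3.11.15 and matplotlib 3.10.9.

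Replicate numbers did not pair the libraries by the labels, so the block was an alternative only. Other alternatives were the pseudocount, the filter, median scaling, quantile normalization, fitting only the groups compared, no trend, and leaving out each library.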

Additional observations from a re-analysis of the deposited data

Results flagged for a closer look

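In DMSO cells, replicate 4 had 35.13 TPM of TIMP2 and stood apart from the other 3 libraries. This was 1 of 10 members examined there, and chance alone flags about 1 in 20.

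The response to CS1 differed from the response to the FTO hairpin, by the test of the difference itself, for MMP1 (3.90), MMP8 (3.47), TIMP2 (0.67), MMP25 (0.46), TIMP1 (-0.29) and MMP2 (-1.51), all as log2 differences. The response to CS2 differed for MMP8 (5.76), MMP1 (4.59), TIMP2 (1.00), TIMP1 (0.18) and MMP2 (-1.61). Since the members were chosen with these values known, the differences are descriptions. Their causes were not tested, and the compound and hairpin cells came from separate experiments.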

How the results depend on the processing

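Of 42 member results (7 members in 6 comparisons), 31 kept direction and call under each of the 24 alternatives in which they were tested; MMP9 was not tested under the filter of 5 TPM. Under median scaling, MMP2 with CS2 was at -0.02 (also -0.02 by quantile normalization), MMP25 and TIMP2 in shFTO cells at -0.07 and -0.03, and TMEM123 with CS1 at -0.01. Leaving out 1 library put MMP25 in shFTO cells between -0.12 and 0.12. Under median scaling 7 activators or inhibitors and 2 flanking genes were called with CS1. Quantile normalization called 3 flanking genes with CS1.

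A filter of 5 TPM in 3 libraries tested fewer genes. With CS1 it left calls for 0 further MMPs, 2 matrix genes and 3 flanking genes. With CS2 it left 1 further MMP, 5 ADAM or ADAMTS genes and 4 matrix genes, and in shFTO cells 4 matrix genes. In shFTO cells, 3 further MMPs were called with no filter, and 4 flanking genes with a pseudocount of 0.1 or with no trend. Leaving out 1 library gave 3 to 5 flanking genes with CS1 (3 without CS1 replicate 1) and 2 to 4 in shFTO cells (4 without CS2 replicate 3). Other causes were not tested.

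The labels give same-numbered libraries only a number in common, and not every pair passed 0.1: deviations from group means correlated at -0.00925 to 0.101 (CS1 and DMSO), 0.0244 to 0.0786 (CS2 and DMSO), 0.00439 to 0.0764 (shFTO and shNS) and, highest, 0.0853 to 0.219 (CS1 and CS2). With the block 4061 entries were higher and 6264 lower in CS1 against CS2. With the replicate block 5615 entries were higher and 2219 lower with CS1, 7374 and 3734 with CS2, and 5111 and 3809 in shFTO cells. The block ended the MMP1 call in shFTO cells (0.50, SE 0.211). The depth behind each TPM value is unknown, which limits MMP9, MMP14, MMP19 and TIMP3 most.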
